A study of Homo sapiens with 8 samples.

Results

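Across 6 long segments of chromosomes 3, 7 and 8, the FLI1 ChIP-Seq library of OCI-Ly1 had a higher relative background than both VAL libraries. The inferred local background of each library was divided by that of its other autosomes. In reads, VAL replicate 1 was the highest, with a median of 1.17 in the segments against 0.410 in OCI-Ly1 and 0.278 in VAL replicate 2. The segments were chosen by the measured background, so the background itself is given as a description with no test. In GRCh37 coordinates they are chr3:130000001-160000000 (3q proximal), chr3:165000001-198020000 (3q distal), chr7:15000001-55000000 (7p), chr7:60000001-80000000 (7q proximal), chr7:85000001-155000000 (7q distal) and chr8:130000001-146360000 (8q). A listed peak belonged to a segment when its centre lay inside it. The segments held 59722 of the 1107379 listed peaks of OCI-Ly1 replicate 2, 16657 of the 237178 of VAL replicate 1 and 71542 of the 986629 of VAL replicate 2, which makes 147921 of 2331186 over the 3 libraries.

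FLI1 was immunoprecipitated from OCI-Ly1 and VAL, both established lines of germinal center B-cell (GCB) diffuse large B-cell lymphoma, with a rabbit polyclonal antibody, and no treatment, knockdown or allele separates the groups in these labels. There were 2 FLI1 libraries for each line, and 4 input DNA samples that were not analysed here. OCI-Ly1 replicate 1 was not used here, so OCI-Ly1 stands for its replicate 2 from here on and has no replicate error. The 2 VAL libraries give the only spread between replicates, and each line is a single model of its disease.

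FLI1 is an ETS transcription factor, a family whose DNA-binding domain recognises a GGAA core, most tightly when it is preceded by CC. A peak caller weighs the reads piled up at a summit against the read density expected around it, the local background, so the same pile of reads counts for less where the background is higher. Chromosome 3q carries BCL6, the repressor that sets the germinal center programme, chromosome 7 carries IKZF1 and EZH2, and 8q carries several signalling and DNA repair genes.

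The reference letters below (GRCh37) are those under the strongest FLI1 peak of OCI-Ly1 that holds CCGGAA within 50 bp of its summit, 1 for each segment of chromosomes 3 and 7. Capitals mark CCGGAA, and each run is written 5′ to 3′ on the strand that carries it.
COMMD2 (3q proximal, chr3:149470270-149470299, minus strand): gggacacgggcgCCGGAAgtggcgaaggcg
39 kb from RUBCN (3q distal, chr3:197381749-197381778, minus strand): tttcctgcgcccCCGGAAgcggcggtaacg
TBRG4 (7p, chr7:45151356-45151385, plus strand): cgccccgcacgtCCGGAAgccacgcctcca
GTF2IRD2 (7q proximal, chr7:74267920-74267949, minus strand): gattcgacagcaCCGGAAacggcgactccc
WASL (7q distal, chr7:123389159-123389188, plus strand): cgggggagcgcgCCGGAAacgcgcggctgc

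The next set shows the same window at B lymphoma genes of these chromosomes whose promoter peak passed the threshold in both lines, with letters shown beside the values that follow, and was chosen after those values were seen.
PIK3CA (3q distal, chr3:178866135-178866164, minus strand): gcagcggcggcaCCGGAActgccgctttct
ATR (3q proximal, chr3:142297651-142297680, plus strand): ccaaaactcctcCCGGAAgccgctactggc
DBNL (7p, chr7:44084229-44084258, minus strand): cgcctccgacaaCCGGAAaccccgccccac
BCL7B (7q proximal, chr7:72971541-72971570, plus strand): ctccagtccgggCCGGAAgccggaatcccc
PTPN12 (7q proximal, chr7:77166212-77166241, plus strand): cggggccacgccCCGGAAatggagtcaggt
KMT2E (7q distal, chr7:104653982-104654011, minus strand): ggggagaagcagCCGGAAaaatgcagccac

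The sites of COMMD2, TBRG4, WASL, PIK3CA, DBNL, BCL7B and KMT2E lie in annotated exons, and those of COMMD2, TBRG4, PIK3CA and DBNL in an untranslated region. A G followed the motif at 108 of the 153 passing summits of OCI-Ly1 on chromosomes 3 and 7 that held CCGGAA (70.6%), at 20 of 27 in VAL replicate 1 (74.1%) and at 77 of 104 in VAL replicate 2 (74.0%). Of all 12031 copies of CCGGAA in the reference of these 5 segments, 4133 were followed by G (34.4%). The longer run CCGGAAGT took 53 of the 153 sites in OCI-Ly1 (34.6%), 13 of 27 in VAL replicate 1 (48.1%) and 42 of 104 in VAL replicate 2 (40.4%), against 851 of the 12031 copies (7.07%). A G thus followed about as often in the 3 libraries, and more often than in the segments at large, as a description of these peaks.

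The reads at a summit and the background were solved from the fold enrichment and the p-value of each listed peak, and the background is in reads. Over the autosomal peaks outside the segments, OCI-Ly1 had a median of 0.290 reads, against 1.17 and 0.278 for VAL replicates 1 and 2. Each library also had a lowest background that many peaks shared, 0.283, 0.526 and 0.278 reads, below which no peak fell. VAL replicate 2 sat at that lowest value at 56.2% of its peaks, so its medians cannot show a fall, and means capped at the 99th percentile of each library are given as well.

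The 8q segment was the highest. OCI-Ly1 had a median of 0.564 reads there, and VAL replicates 1 and 2 had 1.21 and 0.278. Relative to the rest of the autosomes of the same library this was 1.94 times in OCI-Ly1, 1.03 times and 1.0 times in the VAL replicates, and OCI-Ly1 over VAL was 1.88 against replicate 1 and 1.94 against replicate 2.

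The 7q distal and 7q proximal segments followed, with the same OCI-Ly1 median of 0.410 reads. VAL replicate 1 had a median of 1.17 reads in both, and VAL replicate 2 had 0.278 in the distal and 0.281 in the proximal segment. OCI-Ly1 over VAL was 1.41 against both replicates in 7q distal, and 1.41 and 1.40 in 7q proximal. The 3q distal segment had 0.395 reads in OCI-Ly1, 1.17 in VAL replicate 1 and 0.278 in VAL replicate 2, with a ratio of 1.36 to each.

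The 7p and 3q proximal segments were the lowest of the 6. In 7p the medians were 0.354, 1.004 and 0.278 reads and the ratios 1.42 and 1.22 to VAL replicates 1 and 2. In 3q proximal they were 0.344, 1.004 and 0.278 reads, and the ratios 1.38 and 1.19. Only in these segments was the median of VAL replicate 1 below the rest of its autosomes by more than rounding, at 0.857 of it in each. VAL replicate 2 was at its lowest value. By capped means, both VAL replicates were below their other autosomes in each segment, at 0.832 to 0.994 of them in replicate 1 and 0.931 to 0.999 in replicate 2. OCI-Ly1 had 1.21 in 3q proximal to 1.72 in 8q. Part of each ratio of capped means is thus a lower VAL value. With capped means the ratio to VAL replicate 2 ranged over the segments from 1.298 in 3q proximal to 1.78 in 8q, and to VAL replicate 1 from 1.40 in 7q proximal to 1.75 in 8q. The order of the segments below 8q therefore depended on the VAL library and on the summary, whereas 8q was the highest in each of these ratios. Among peaks with the most common read number alone, 1 read, the ratio to VAL replicate 2 was 1.0 in 8q, the lowest of the 6. It was 1.11 to 1.14 in the others. Peaks of 1 read were listed only up to 0.354 reads of background in OCI-Ly1, and were 7.75% of its 8q peaks. The listing limit thus caps this ratio in every segment, and it cannot show how high the background of a segment was. Why 8q stood lowest by it was not tested.

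Along the segments the elevation was widespread rather than resting on a few places. The bins use the background that chose the segments, so their contrast with bins outside is implied by the rule and supports nothing. Cut into bins of 1 Mb with at least 20 listed peaks in every library, the segments gave 208 bins, and the relative mean background was higher in OCI-Ly1 than in both VAL libraries in 207 of them (99.5%). The same held for 1431 of 2506 autosomal bins outside (57.1%). A ratio over 1.5 to VAL replicate 2 was reached by 15 of 17 bins in 8q, 25 of 70 in 7q distal, 6 of 18 in 7q proximal, 7 of 33 in 3q distal, 4 of 40 in 7p and 1 of 30 in 3q proximal, against 13 of the 2506 bins outside (0.519%).

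**Figure D1:**
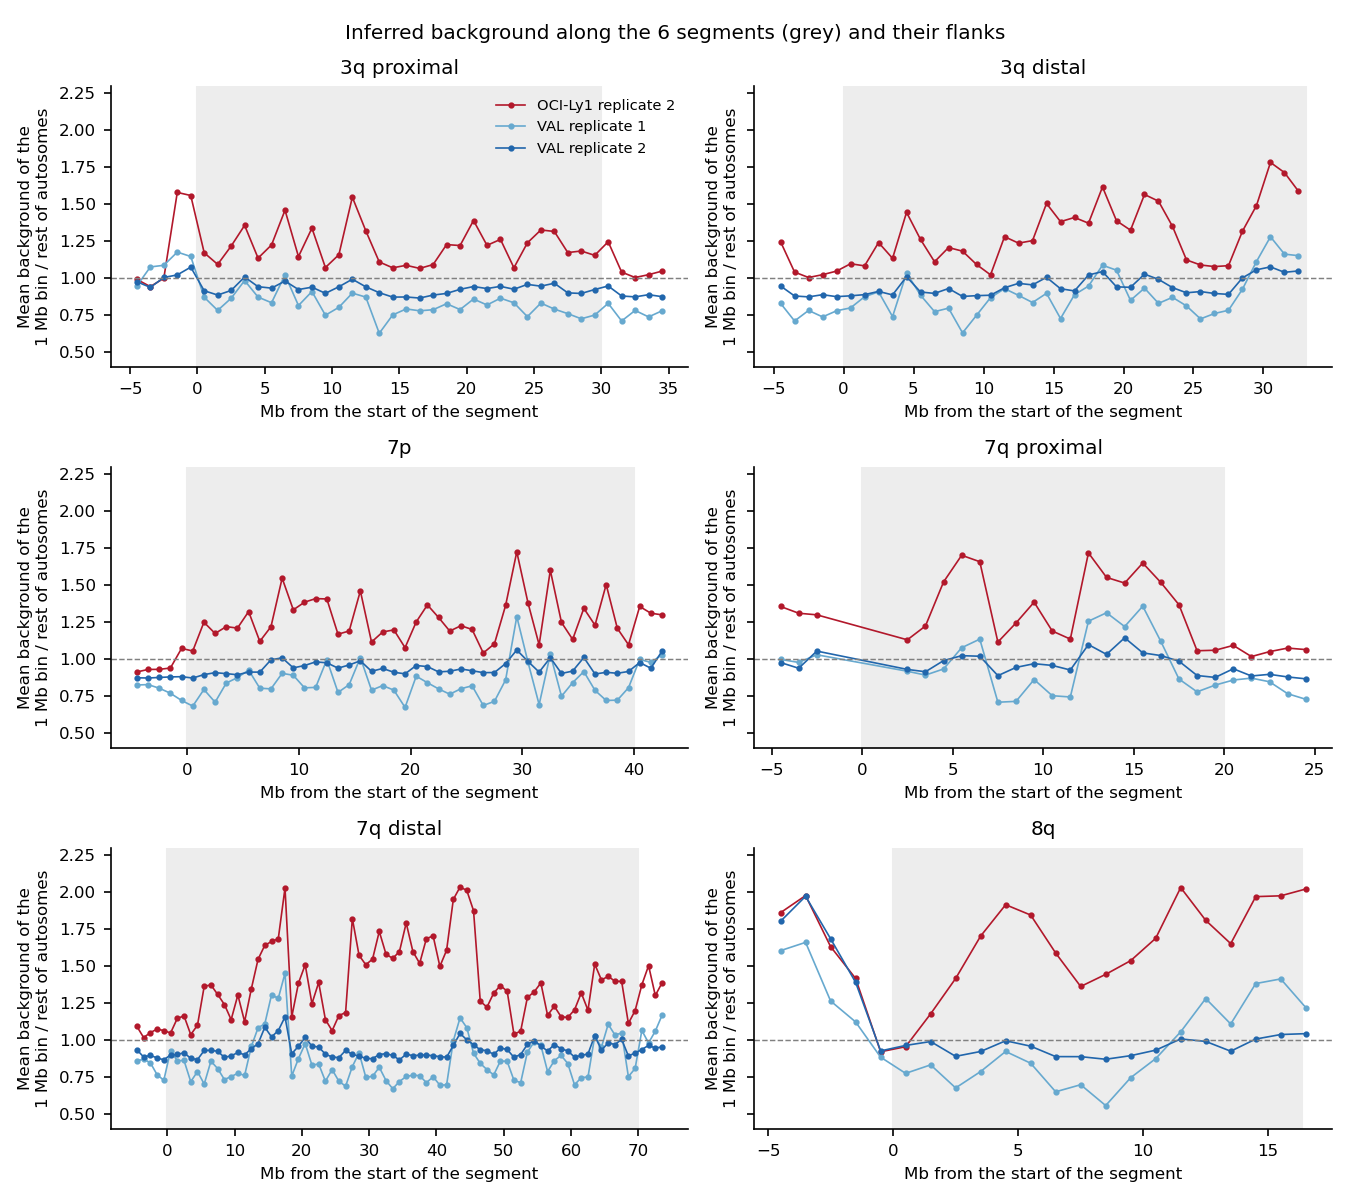
Mean inferred background of each 1 Mb bin divided by the mean over the autosomes outside the segments (y axis), against the distance in Mb from the start of each segment (x axis), with 5 Mb of flank on each side where present. Grey marks the segment and each point is 1 bin of 1 library, and bins with under 20 listed peaks in a library are not drawn. The OCI-Ly1 points lie above both VAL lines inside the grey area except in the first bin of 8q, and stay above them beyond several of the bounds.

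Within a segment the level was uneven. In 7q distal, 19 bins in a row from 112 to 131 Mb exceeded 1.5, with relative backgrounds of 1.5 to 2.04 in OCI-Ly1 against 0.673 to 1.15 in VAL replicate 1 and 0.868 to 1.05 in VAL replicate 2. The highest bin of that segment, 127 to 128 Mb, had 1.95, 0.997 and 0.966 in these libraries and a ratio of 2.02 to VAL replicate 2. Its lowest bin was the first, 85 to 86 Mb, with a ratio of 1.16.

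The bounds of the rule did not always fall where the level changed. In 8q the first bin, 130 to 131 Mb, had relative backgrounds of 0.957 in OCI-Ly1, 0.777 in VAL replicate 1 and 0.965 in VAL replicate 2, a ratio of 0.991 to the latter and the lowest of the segment. The bin just outside, 129 to 130 Mb, was alike at 0.994, while the ratio was 1.19 in the next bin inside, 1.59 at 132 to 133 Mb and at most 2.01, at 141 to 142 Mb. At the other end of the scale, 3q proximal began with 1.28 at 130 to 131 Mb, below the 1.45 and 1.55 of the 2 bins just outside it, and closed with 1.25 at 159 to 160 Mb against 1.32 in the bin beyond.

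On chromosome 7 the neighbouring bins were also raised. The ratios to VAL replicate 2 just inside and just outside were 1.21 and 1.22 at the start of 7p, 1.20 and 1.39 at its end, 1.21 and 1.17 at the end of 7q proximal, and 1.31 and 1.47 at the end of 7q distal. At the start of 7q distal they were 1.16 and 1.23, and on chromosome 3, at the start of 3q distal, 1.25 and 1.20. The first bin of 7q proximal with enough peaks began 2 Mb inside it and had 1.21. The highest bins of the other segments were 141 to 142 Mb in 3q proximal (1.56), 195 to 196 Mb in 3q distal (1.66), 52 to 53 Mb in 7p (1.65) and 65 to 66 Mb in 7q proximal (1.66), and their lowest bins had 1.16, 1.16, 1.15 and 1.19.

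A peak was listed only past a p-value limit, so a higher background raises the reads needed for listing, and the read numbers of listed peaks describe what the choice of segments implies. A summit with a single read was listed at up to 0.354 reads of background in OCI-Ly1, and never in VAL replicate 1. Such single-read peaks were 23.03% of the OCI-Ly1 peaks in the segments against 47.3% outside, from 7.75% in 8q to 32.5% in 3q proximal. VAL replicate 2 went the other way, with 44.7% in the segments and 40.5% outside.

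Peaks of 3 or more reads were 44.9% of the OCI-Ly1 list in the segments (70.4% in 8q) against 18.1% outside, and 19.4% against 23.7% in VAL replicate 2. Listed peaks per Mb without assembly gaps were 288.0 in the segments against 404 outside in OCI-Ly1. They were 345 and 350 in VAL replicate 2 and 80.3 and 84.3 in VAL replicate 1.

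**Figure D2:**
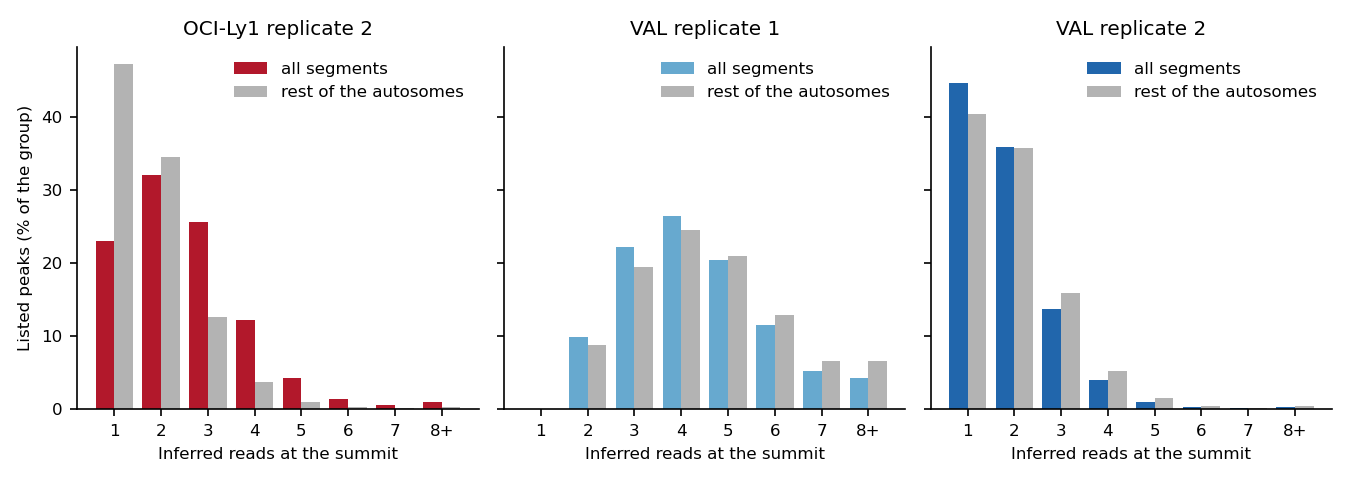
Share of listed peaks (y axis, percent of the group) by inferred reads at the summit (x axis, 8 or more pooled), for peaks of the segments in colour and of the other autosomes in grey, 1 panel for each library. In OCI-Ly1 the segments have 23.03% single-read peaks against 47.3%, while in VAL replicate 2 they have 44.7% against 40.5% and VAL replicate 1 has none.

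A peak passed when its -log10 q was at least 3, an FDR of 0.001. In the segments 579 peaks passed in OCI-Ly1 (0.969% of those listed, background 0.483% of the whole library), 63 in VAL replicate 1 (0.378%, background 0.410%) and 367 in VAL replicate 2 (0.513%, background 0.656%). The OCI-Ly1 share was near that of its library in 7p (0.504%, Wilson 95% interval 0.390 to 0.651%) and 3q proximal (0.622%, 0.475 to 0.815%), whose intervals hold 0.483%. In the other 4 segments it was higher, from 1.03% in 7q distal to 1.99% in 8q (1.65 to 2.39%). All intervals cover counting error only. It is a share of a list that held fewer weak peaks here, so density was compared as well.

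Passing peaks per Mb were 2.79 in the segments and 1.88 outside in OCI-Ly1, and 1.77 and 2.39 in VAL replicate 2. The 8q segment was dense in both, with 6.87 and 3.78 per Mb, and of the 6 segments held the most protein coding genes per Mb (8.17, against 7.25 in the other autosomes) and the highest GC content (45.0%). Relative to the other autosomes, OCI-Ly1 had fewer passing peaks per Mb in 7p (0.770 times) and 3q proximal (0.920 times) and more in the other segments. On the same relative scale each segment had more passing peaks per Mb in OCI-Ly1 than in VAL replicate 2, by 1.57 times in 7p to 2.54 times in 7q proximal. Against VAL replicate 1, with 4 to 18 passing peaks a segment, the ratios were 1.33 to 2.41. Just inside and just outside the threshold, -log10 q was 3.03 and 2.998 in OCI-Ly1, 3.001 and 2.995 in VAL replicate 1, and 3.003 and 2.91 in VAL replicate 2.

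At a given number of reads, the background decides whether a summit passes, and the segments were chosen on that background. The following shares are therefore a description of what the rule implies and support nothing. Of OCI-Ly1 summits with 6 reads, the fewest that passed there, 54 of 845 passed in the segments (6.39%) and 985 of 3131 outside (31.5%), and the highest background at which they passed was 0.387 reads in the segments. With 7 reads it was 101 of 319 (31.7%) and 836 of 1399 (59.8%), and with 9 reads 60 of 98 (61.2%) and 417 of 485 (86.0%). At 11 reads it was 33 of 35 (94.3%, 81.4 to 98.4%) and 242 of 272 (89.0%, 84.7 to 92.2%). At 12 reads it was 28 of 28 (87.9 to 100%) and 175 of 193 (90.7%, 85.7 to 94.0%). These intervals overlap, so the order at 11 and 12 reads is not settled. In VAL replicate 2, 112 of 187 summits with 6 reads passed in the segments (59.9%) and 1749 of 4140 outside (42.2%).

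**Figure D3:**
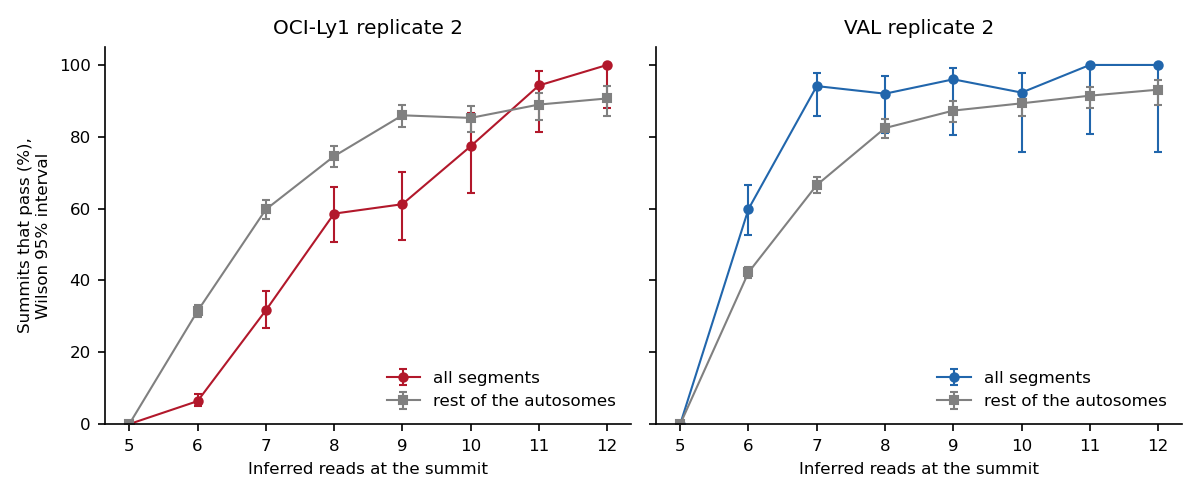
Percent of summits that pass (y axis, Wilson 95% interval) by inferred reads (x axis), for the segments in colour and the other autosomes in grey. In OCI-Ly1 the segments lie below the rest from 6 to 10 reads and above it at 11 and 12, and in VAL replicate 2 they lie above it at each number of reads from 6 to 12. The intervals overlap from 10 to 12 reads in OCI-Ly1 and from 8 to 12 in VAL replicate 2.

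The reads at peaks passing in both lines were compared next, as a description. These peaks had to pass in OCI-Ly1, which takes more reads where the background is higher, so the choice of segments and the threshold both raise the ratio. Among passing OCI-Ly1 peaks that overlapped a passing peak of VAL replicate 2, the median was 15 reads in OCI-Ly1 and 9 in VAL for the 211 peaks of the segments, and 11 in both for 2307 peaks outside. The median ratio of reads was 1.47 in the segments (quartiles 1.17 and 1.88) and 1.0 outside (0.8 and 1.3). OCI-Ly1 had more reads at 175 of the 211 peaks (82.9%, 77.3 to 87.4%) and at 1079 of the 2307 (46.8%, 44.7 to 48.8%).

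The ratio of reads was highest in 8q, at 1.78 over 41 peaks, and lay between 1.33 in 3q distal and 1.54 in 7p in the others. The segments stood in partly the same order by the background at these peaks. The background ratio was also highest in 8q, at 2.72, and lowest in 3q distal, at 1.54. The order differed for 3q proximal, with a background ratio of 2.20 and a read ratio of 1.45, and 7p, with 1.79 and 1.54. The fold enrichment divides the reads plus 1 by the background plus 1, so it corrects only in part for a background this low. It differed less, with a median OCI-Ly1 over VAL ratio of 1.12 in the segments (0.910 and 1.44) and 0.986 outside (0.787 and 1.21). The quartiles of the fold ratio overlapped between the segments and the rest.

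**Figure D4:**
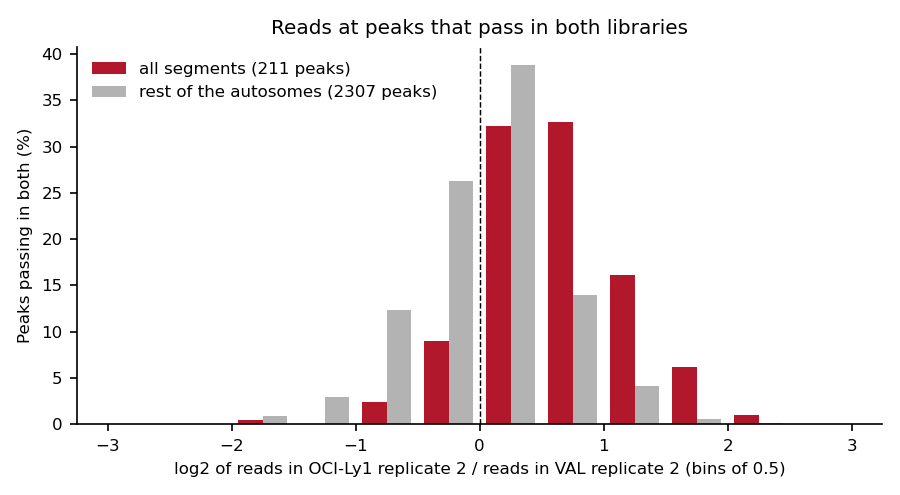
Distribution of the log2 ratio of reads, OCI-Ly1 over VAL replicate 2 (x axis, bins of 0.5, equal reads in the bin starting at 0), as percent of the peaks passing in both libraries (y axis). The 211 peaks of the segments (red) lie to the right of those of the other autosomes (grey), with median ratios of 1.47 and 1.0.

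The overlap of the lists was lopsided, since about the same shared peaks are divided by lists of unlike length. Those lengths depend in part on the background that chose the segments, so the shares are a description. Of the OCI-Ly1 passing peaks in the segments, 211 of 579 shared 1 bp or more with a peak passing in VAL replicate 2 (36.4%, 32.6 to 40.4%), against 49.5% outside (48.0 to 50.9%). From the other side, 211 of the 367 peaks of VAL replicate 2 overlapped OCI-Ly1 (57.5%, 52.4 to 62.4%), against 38.7% outside (37.5 to 40.0%). At 286 of the 368 OCI-Ly1 peaks without a partner (77.7%), VAL replicate 2 listed a weaker peak that did not pass, with a median of 4 reads, and outside the segments it was 1871 of 2360 (79.3%), also with a median of 4. VAL replicate 1 overlapped 49 of the 579 (8.46%, 6.46 to 11.01%), against 563 of 4669 outside (12.1%). Of its own 63 passing peaks 49 overlapped OCI-Ly1 (77.8%, 66.1 to 86.3%), against 566 of 865 outside (65.4%).

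Promoters, taken as 3 kb around any annotated TSS, held most passing peaks: 386 of 579 in OCI-Ly1 (66.7%, 62.7 to 70.4%), 38 of 63 in VAL replicate 1 (60.3%, 48.0 to 71.5%) and 263 of 367 in VAL replicate 2 (71.7%, 66.9 to 76.0%). Outside the segments the shares were 72.6%, 65.2% and 67.5%. The outside share of OCI-Ly1 lay above the interval of its segments, and those of the VAL replicates lay within theirs. Within 7q proximal the OCI-Ly1 share was 55.6% (44.1 to 66.5%).

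CCGGAA lay within 50 bp of 197 of the 579 OCI-Ly1 summits (34.0%, 30.3 to 38.0%), 31 of 63 in VAL replicate 1 (49.2%, 37.3 to 61.2%) and 133 of 367 in VAL replicate 2 (36.2%, 31.5 to 41.3%). In windows of the same length centred 250 bp upstream the shares were 3.63%, 1.59% and 3.54%. The passing summits outside held it at 38.5%, 38.8% and 30.8%. Promoter peaks carried it more often than distal ones in the segments of OCI-Ly1, at 45.1% of 386 against 11.9% of 193.

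The strongest peak of the segments in OCI-Ly1 and in both VAL replicates was the promoter of WASL, an activator of actin branching, at chr7:123388370-123389578. Its -log10 q was 153.8 with 103 reads in OCI-Ly1, 23.5 with 33 reads in VAL replicate 1 and 110.8 with 60 reads in VAL replicate 2. The fold enrichment was 48.9, 11.6 and 47.7, so OCI-Ly1 and VAL replicate 2 nearly matched in fold while their reads and backgrounds (1.13 and 0.278) did not. The fold adds 1 to the reads and to the background, so the near match does not show equal reads over background.

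In 3q distal the strongest peak, chr3:197380888-197382080, lay 39341 bp from RUBCN, the nearest protein coding gene, and had 76.2, 9.47 and 53.9 in OCI-Ly1 and VAL replicates 1 and 2. The top peak of 3q proximal in OCI-Ly1 and VAL replicate 2 was 14263 bp from CCNL1, at the start of a non-coding gene, with 25.9, 2.02 and 18.2. VAL replicate 1 had its own leaders there. They were MRPL3, a protein of the mitochondrial ribosome (16.5, 4.89 and 6.56), and in 3q distal an intergenic peak 173501 bp from LPP (10.1, 14.0 and 19.1).

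On 7p the leading promoter was TBRG4, which acts in mitochondrial RNA metabolism (47.5, 9.97 and 32.0), and in VAL replicate 1 PURB, a single-stranded DNA binding protein (20.8, 14.05 and 21.0). In 7q proximal the leaders were GTF2IRD2 (65.6, 2.63 and 38.9), its near copy GTF2IRD2B (61.4, 6.13 and 54.2) and a peak at the NSUN5P2 pseudogene (57.8, 9.41 and 23.8). These genes, and POM121 and POM121C, have near-identical copies in the region. The study's methods kept only reads with 1 position, but the settings behind the deposited lists are not known. The read numbers of these genes are therefore uncertain.

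On 8q the order changed between the lines. The OCI-Ly1 leader lay at the shared start of a readthrough gene (ENSG00000290230) and EXOSC4, a subunit of the RNA exosome, with 70.1 and 61 reads, against 7.67 and 20 reads in VAL replicate 1 and 23.8 and 22 reads in VAL replicate 2. The leader of both VAL replicates lay in an intron of ZC3H3, with 16.1 and 32 reads in replicate 1 and 69.5 and 45 reads in replicate 2. OCI-Ly1 had 31.9 there with 33 reads, fewer than VAL replicate 2, and a background of 1.13 reads against 0.414.

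A peak passed in all 3 libraries at 45 places of the segments: 13 in 7q distal, 9 in 8q, 8 in 3q distal, 7 in 7p, 7 in 7q proximal and 1, MRPL3, in 3q proximal. Of these 35 were promoters (77.8%) and 29 held CCGGAA (64.4%). By the lowest of their -log10 q the leaders were WASL (23.5), PPP1R35 (19.9) and CYREN (13.01) in 7q distal, and the ZC3H3 intron (16.1), MAFA (9.95) and the EXOSC4 start (7.67) in 8q. The peak at NSUN5P2 (9.41), POM121C (7.49) and POM121 (6.77) led in 7q proximal. TFRC (13.9), a non-coding gene 50555 bp from APOD (10.4) and the LPP intergenic peak (10.1) led in 3q distal, and PURB (14.05), COA1 (11.96) and TBRG4 (9.97) in 7p. Such places outside the segments were not counted, so the 45 places and their promoter and motif shares have no outside value. By gene, 40 of the 1276 protein coding genes of the segments had a passing promoter peak in each of the 3 libraries (3.13%). Outside the segments it was 511 of 18860 (2.71%), a similar share.

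The segments held 75 genes of a list of B lymphoma genes, and a promoter peak that passed was found for 35 of them in OCI-Ly1 (46.7%), 4 in VAL replicate 1 (5.33%) and 21 in VAL replicate 2 (28.0%). Among all 20136 protein coding genes the background was 19.0%, 3.14% and 20.9%. Among the 1276 protein coding genes of the segments it was 26.9%, 3.37% and 19.6%. A list of 54 housekeeping genes had 59.3%, 14.8% and 50%, and 44 genes of other lineages had 6.82%, 0% and 9.09%.

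By where the genes passed, 18 B lymphoma genes did so in both lines, 17 in OCI-Ly1 alone and 3 in VAL alone. Over all coding genes of the segments 199 passed in both, 144 in OCI-Ly1 alone and 54 in VAL alone, and outside the segments 2341, 1140 and 1649. Counted by library, a -log10 q of at least 5 left 16 of the 35 B lymphoma genes in OCI-Ly1. It left 2 of the 4 in VAL replicate 1 and 13 of the 21 in VAL replicate 2. At 15 of the 18 shared genes the OCI-Ly1 and VAL replicate 2 peaks overlapped. Among those 15, OCI-Ly1 had more reads at 13, with a median ratio of 1.23 and a range of 0.778 to 3, and BCL7B and POLM were the exceptions. Over all 211 shared peaks of the segments, OCI-Ly1 had more reads at 175 (82.9%), with a median ratio of 1.47. The choice of segments and the threshold raise both ratios.

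**Figure D5:**
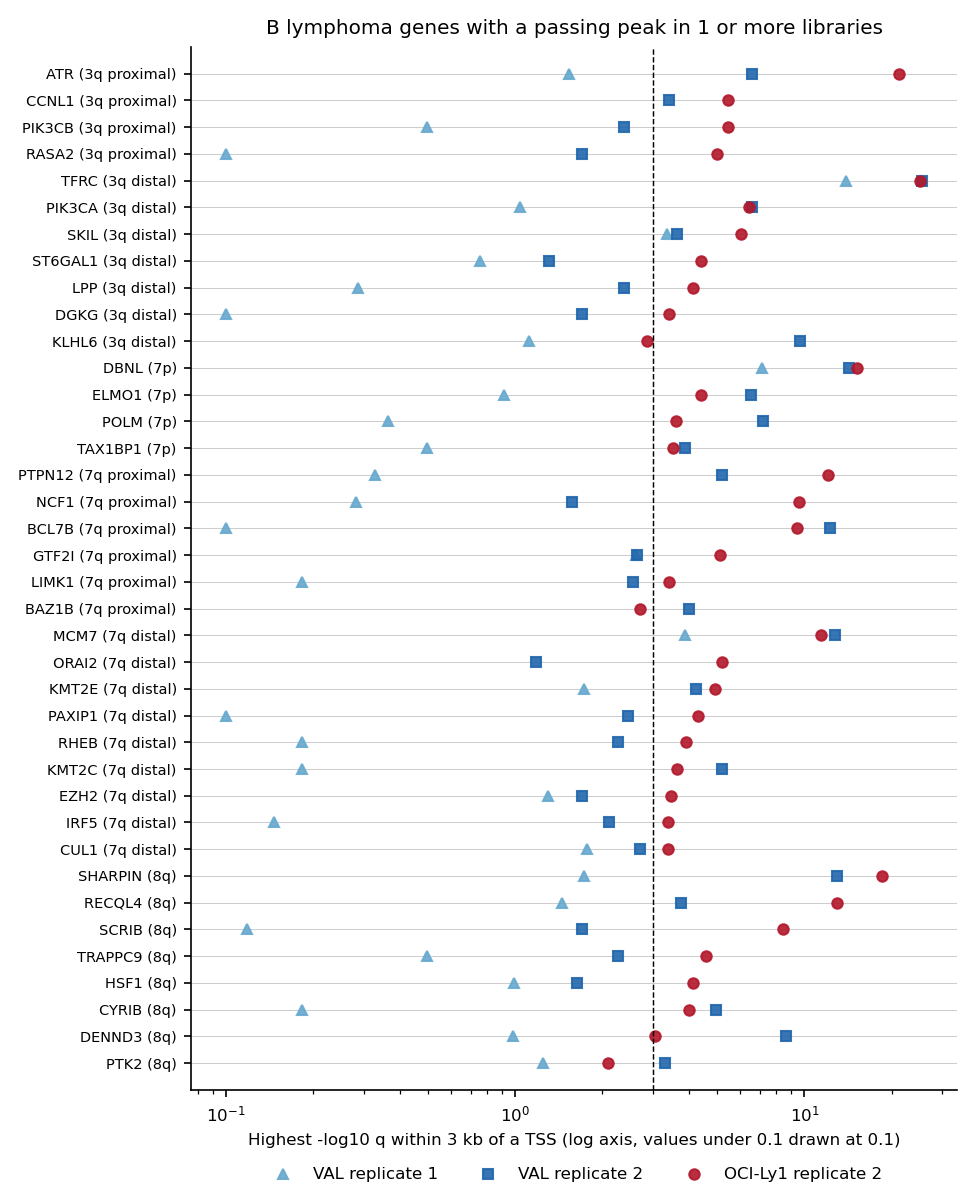
Largest -log10 q among peaks at the promoter (x axis, log scale) for the 38 B lymphoma genes with a passing peak in 1 or more libraries, ordered by segment (y axis). The dashed line is the threshold of 3, values under 0.1 are drawn at 0.1, a missing symbol is a library with no listed peak there, and OCI-Ly1 is past the line at 35 genes, VAL replicate 2 at 21 and VAL replicate 1 at 4.

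The genes that passed in all 3 libraries were TFRC, SKIL, DBNL and MCM7. TFRC, the transferrin receptor that brings iron into dividing cells (ENSG00000072274, chromosome 3, 195739382 to 195809024, minus strand), had -log10 q of 25.2, 13.9 and 25.5 and 23, 22 and 22 reads in OCI-Ly1, VAL replicate 1 and VAL replicate 2. OCI-Ly1 and VAL replicate 2 had nearly equal reads there. MCM7, a subunit of the replication helicase on 7q distal, had 11.4, 3.86 and 12.8 with 16, 16 and 13 reads.

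DBNL, an actin-binding adaptor of antigen receptor signalling on 7p (ENSG00000136279, chromosome 7, 44084239 to 44109055), had 15.1, 7.11 and 14.3 and 17, 18 and 14 reads. SKIL, a repressor of SMAD signalling, had 6.04, 3.36 and 3.64 with 9, 14 and 6 reads. Both had more reads in OCI-Ly1 than in VAL replicate 2, and the backgrounds at DBNL were 0.615 and 0.359 reads.

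The kinase genes of 3q did not share 1 pattern. ATR, the kinase of the replication stress response (ENSG00000175054, chromosome 3, 142167849 to 142297575), had 21.3, 1.53 and 6.56 with 19, 11 and 8 reads. PIK3CA, the catalytic subunit alpha of PI3-kinase (ENSG00000121879, chromosome 3, 178865902 to 178957881), had 6.44, 1.03 and 6.56 with 9, 10 and 8 reads. ATR thus stood higher in OCI-Ly1 and PIK3CA was alike in OCI-Ly1 and VAL replicate 2.

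PIK3CB, the beta subunit, passed in OCI-Ly1 alone (5.45, 0.495 and 2.37), as did the RAS inhibitor RASA2 (4.99, 0 and 1.71). CCNL1, a cyclin tied to splicing, passed in OCI-Ly1 and VAL replicate 2 (5.45 and 3.40), with no peak listed in VAL replicate 1. KLHL6, a ubiquitin ligase adaptor needed for germinal center B cells, was the clearest case the other way, with 2.84, 1.11 and 9.66 and 7, 7 and 11 reads.

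Of the other 3q distal genes, ST6GAL1, which adds the sialic acid bound by CD22, had 4.39, 0.757 and 1.31. LPP, a frequent fusion partner of BCL6, had 4.12, 0.285 and 2.37, and the diacylglycerol kinase DGKG had 3.40, 0.0404 and 1.71. These 3 passed in OCI-Ly1 alone with 7 to 9 reads. BCL6 itself did not pass, with 1.61, 0.328 and 0.952 and 5, 6 and 3 reads.

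Other genes of 7p and 7q distal passed in 1 or both lines. ELMO1, an activator of RAC, had 4.39, 0.914 and 6.53, POLM, a polymerase of DNA end joining, 3.59, 0.362 and 7.21, and TAX1BP1, a partner of the NF-κB inhibitor A20, 3.50, 0.495 and 3.87. IRF5, a factor of interferon responses, had 3.38, 0.146 and 2.11 and ORAI2, a calcium channel, 5.19 and 1.17 in OCI-Ly1 and VAL replicate 2. IKZF1, the lymphoid factor Ikaros, did not pass, with 2.61, 0.382 and 1.71.

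In 7q proximal, PTPN12, a tyrosine phosphatase, had 12.03, 0.328 and 5.19 with 18, 6 and 8 reads, and BCL7B, a subunit of BAF chromatin remodelers, 9.40, 0 and 12.3 with 12, 4 and 15 reads. LIMK1, the kinase of cofilin, had 3.39, 0.183 and 2.55, and BAZ1B, a chromatin remodeler, 2.69 in OCI-Ly1 and 3.99 in VAL replicate 2. NCF1, a subunit of the phagocyte oxidase, had 9.54, 0.282 and 1.56 and GTF2I, a substrate of BTK, 5.10, 2.61 and 2.63, both with close copies nearby and therefore uncertain.

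On 7q distal, EZH2, the H3K27 methyltransferase of germinal center B cells (ENSG00000106462, chromosome 7, 148504349 to 148581413), had 3.44, 1.296 and 1.71 with 7, 6 and 4 reads. KMT2E, a SET domain protein, had 4.92, 1.72 and 4.23, PAXIP1, which works with KMT2C, 4.28, 0 and 2.45, and KMT2C, an H3K4 methyltransferase, 3.63, 0.183 and 5.19. The KMT2C peaks of the lines did not overlap, the OCI-Ly1 peak lying at an internal TSS.

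RHEB, the activator of mTORC1, had 3.90, 0.183 and 2.27 and CUL1, a ubiquitin ligase scaffold, 3.37, 1.77 and 2.70, both past the threshold in OCI-Ly1 alone. The kinase genes CDK6 and BRAF did not pass, with at most 1.71 for CDK6 (VAL replicate 2) and 2.50 for BRAF.

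On 8q, SHARPIN, a subunit of the linear ubiquitin ligase that activates NF-κB (ENSG00000179526, chromosome 8, 145153536 to 145163027), had 18.5, 1.72 and 12.97 with 20, 11 and 14 reads. The same peak lies within 3 kb of the start of MAF1. RECQL4, a DNA helicase, had 12.99, 1.45 and 3.74 with 21, 12 and 7 reads, and a background of 1.54 reads in OCI-Ly1 against 0.459 in VAL replicate 2. SCRIB, a cell polarity protein, had 8.44, 0.118 and 1.71 with 12, 6 and 4 reads.

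TRAPPC9, a trafficking protein tied to NF-κB (4.58, 0.495 and 2.27), and the heat shock factor HSF1 (4.12, 0.992 and 1.63) passed in OCI-Ly1 alone. CYRIB, a regulator of RAC1 (3.99, 0.183 and 4.93), and DENND3, an exchange factor of RAB12 (3.03, 0.980 and 8.63), passed in both lines at peaks that did not overlap. PTK2, the focal adhesion kinase, passed in VAL replicate 2 alone (2.09, 1.25 and 3.29).

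The background over gene bodies comes from the same listed peaks by which the segments were chosen. Its elevation is therefore what the rule implies and supports nothing. In the segments at large, 207 of 208 bins of 1 Mb were above VAL replicate 2. Of 39 B lymphoma genes with at least 20 listed peaks in both libraries, 38 had a higher relative background in OCI-Ly1 than in VAL replicate 2, with a median ratio of 1.59 and a range of 0.999 to 2.15. PTK2 had the highest, at 2.07 in OCI-Ly1 against 0.852 and 0.961 for VAL replicates 1 and 2. ASAP1, an ARF GTPase activator, had the lowest ratio, at 1.02, 0.928 and 1.02.

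Among the housekeeping genes, 26 of 54 passed in both lines, among them RFC4 (51.6, 3.04 and 24.97), MDH2 (23.8, 5.20 and 44.4) and LUC7L2 (22.5, 4.09 and 28.2). The 5 genes of other lineages that passed anywhere were KCNK9, PSCA, DPP6, CFTR and CNTNAP2, with at most 15.4, for PSCA in OCI-Ly1. Whether input DNA has the same background profile was not tested.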

How the data were processed

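Peak lists of 3 FLI1 ChIP-Seq libraries were analysed: OCI-Ly1 replicate 2 and VAL replicates 1 and 2. Per the study's methods, the authors mapped reads to GRCh37 with bowtie2, kept reads with 1 position and a quality of at least 10, removed duplicates with SAMtools and called peaks with HOMER at an FDR of 0.001. The submitters' processing notes name CASAVA 1.4, BWA and hg19 instead. The caller, control and settings behind the deposited lists are not given in the sources used here, and the lists run far below the stated FDR. OCI-Ly1 replicate 1, whose list covers chromosome arms in long intervals, was not used here.

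The deposited lists give a fold enrichment (a ratio over the local background) and -log10 p and -log10 q for each summit, as the authors' caller wrote them. Whole reads n and background λ were solved from fold = (n + 1)/(λ + 1) and a Poisson p = P(X > n). All but 11, 6 and 2 listed peaks were solved, and none of those lay in the segments. These reads are inferred and total depth is unknown. Backgrounds were divided by the median, or by the mean capped at the 99th percentile, over the other autosomes of the same library. Genes came from GENCODE release 44 on GRCh37. Shares have Wilson 95% intervals, which cover counting error only, and no test was run, since OCI-Ly1 had 1 usable library. The solver was tested on simulated data.

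The segments, genes and lists were chosen with earlier results of these data known. Named were the B lymphoma genes with a passing promoter peak, a few of those without, the top peak of each segment in each library, the leading peaks passing in all 3, and the highest, lowest and bounding 1 Mb bins. Runs of bins, the housekeeping examples and the genes of other lineages were named after their values were seen. Alternatives changed the summary, threshold, window, motif, bounds and VAL library. The scripts ran on scipy 1.17.1 and pandas 2.3.3 under Python 3.11.15, with figures drawn in matplotlib 3.10.9.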

Additional observations from a re-analysis of the deposited data

How the results depend on the processing

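Of 90 alternatives over 22 results, 51 moved the value by less than the spread between the VAL replicates, the counting interval or 1.5 times for a count, 37 moved it by more, and 2 turned its direction. The cause was not tested. OCI-Ly1 over VAL replicate 2 stayed above 1 in 5 of the 6 segments under each alternative run. The exception was 8q among peaks with the most common read number, 1 read. The listing limit caps this ratio in every segment, so it cannot show how high a background was. Why 8q stood lowest was not tested. Among peaks with the most common read number it was 1.13 in 3q distal, 1.12 in 7p, 1.11 in 7q proximal, 1.14 in 7q distal and 1.0 in 8q. Capped means gave 1.298 in 3q proximal, 1.34 in 7p and 1.78 in 8q, and peaks more than 3 kb from a TSS gave 1.27 in 3q distal. Capped means against VAL replicate 1, chosen after seeing the data, gave 1.45 in 3q proximal, 1.49 in 7p, 1.54 in 7q distal and 1.75 in 8q. Without VAL replicate 2 the median ratio was 1.38 in 3q proximal and 1.42 in 7p, within 1.36 to 1.88 over the segments, and the overlap share fell to 8.46%. Summits within 100 bp gave an overlap of 30.9%.

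With -log10 q of at least 5, 257 OCI-Ly1 peaks passed, against 31 and 188 for VAL replicates 1 and 2, with B lymphoma genes 16, 2 and 13, promoter shares 83.3% in OCI-Ly1 and 77.1% in VAL replicate 2, and motif shares 56.4% and 52.1%. Promoter shares were 58.9% and 64.9% within 1 kb, and 54.9% and 61.6% with protein coding TSS only. GGAA lay at 74.3%, 90.5% and 79.6% of summits, and CCGGAA within 100 bp at 40.1% in OCI-Ly1 and 43.3% in VAL replicate 2. With assembly gaps kept, listed peaks per Mb relative to the rest were 0.762 in OCI-Ly1, and turned from below to above 1 in VAL replicate 1 (1.02) and VAL replicate 2 (1.05). Solving with P(X >= n) gave no values, since it solved 2, 13 and 12 peaks. No paired analysis was possible because no result comes from a test and OCI-Ly1 had 1 usable library. Depth is unknown, and VAL replicate 1, with the highest background and 63 passing peaks, gives the widest intervals.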
